A study of Sus scrofa with 36 samples.

Results

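The genes described here are markers of the brain endothelium and its barrier, 10 in number and named by symbol: the junction genes CLDN5, OCLN, CDH5 and PECAM1, the transporter genes SLC2A1, MFSD2A, SLC7A5, ABCB1 and ABCG2, and the receptor gene FLT1. The rule that lists them uses no measured value, though they were chosen with earlier results of these data known. Each symbol was looked up among the pig Ensembl identifiers of the count tables, and 7 of the 10 were found, out of 31907 identifiers in all. The 7 were CLDN5, OCLN, CDH5, PECAM1, MFSD2A, SLC7A5 and FLT1, and all 7 passed the filter on low counts, as did 15356 identifiers in total. The remaining 3 have no value here. The identifier that carries the name SLC2A1 was not among the counted identifiers, and no identifier in the name table carried ABCB1 or ABCG2.

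In most of the brain the capillary endothelium forms a barrier. Its cells are sealed to each other by tight junctions, take up few vesicles from the blood, and pass nutrients across by dedicated carriers while pumps return many foreign compounds. Pericytes and astrocyte endfeet surround the vessel, and Wnt signals from neural cells keep the barrier programme on. Milk fat and vegetable oil supply different fatty acids to the blood, and MFSD2A at this barrier is a known entry route for docosahexaenoic acid bound to lysophosphatidylcholine.

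RNA of the cerebellum was measured in 36 piglets in a 2 × 2 design, with 9 piglets in each group. They were crosses of Danish landrace, Yorkshire and Duroc pigs, born at term. Piglets of normal birth weight (NBW) or with spontaneous intrauterine growth restriction (IUGR), chosen by low weight and head shape at birth, were aged 3 days when formula feeding began and received it for 3 weeks. The formula held its fat as vegetable oil in the VEG diet and as bovine milk fat in the MILK diet, so that a group such as VEG-IUGR is named by its diet and birth weight. All piglets shared formula feeding, and no group was reared by the sow. Each library is a different piglet, and the litter of each piglet is not in the labels used here.

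Of the 36 libraries, 33 were used: 8 of VEG-NBW, 8 of VEG-IUGR, 8 of MILK-NBW and 9 of MILK-IUGR, from 16 females and 17 males. Their totals of read pairs counted on genes ran from 15516541 to 23027502, and 26.7% to 30.5% of their read pairs were not assigned to a gene. This share stood apart within its group in piglet 202 of VEG-NBW (43.6%), piglet 210 of VEG-IUGR (64.3%) and piglet 213 of MILK-NBW (31.5%), which were left out. The study also left out a library from each of these groups for low RNA integrity, without naming it. The 3 libraries left out here differed in the barrier genes too. In piglet 210 counts were above 0 for 6513 identifiers, against 18635 in piglet 234, the fewest among the 33 used. Its 0 counts were thus not confined to the genes described here. Piglet 210 had 0 counts of OCLN, CDH5, SLC7A5 and FLT1 among 7936202 counted pairs, which allows a level of up to 0.378 CPM (counts of a gene per 1000000 counts on genes) by a limit of 3 counts that covers counting error only. Yet its PECAM1 (27.2 CPM) and MFSD2A (29.2 CPM) lay above every other VEG-IUGR piglet. Piglet 202 lay below its group for 6 of the 7 genes, and piglet 213 for PECAM1, CDH5, SLC7A5 and FLT1. The share of all genes outside their group in these libraries is not given here. These counts thus do not set the barrier genes apart from other genes.

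The comparisons asked whether the fat source, the birth weight or both together altered these genes. In edgeR's quasi-likelihood test, 0 of the 7 genes passed an adjusted p of 0.05 for diet, birth weight, sex, the interaction of diet with birth weight, or any of the 4 contrasts between single groups. DESeq2 also called 0 of the 7 in each. Over all 15356 genes tested, 0% were called for diet, birth weight, the interaction and each of the 4 contrasts, and 0.163% for sex. At an unadjusted p under 0.05, PECAM1 alone among the 7 stood out, and only for diet. Its level was higher with MILK, over both birth weights and within each.

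CLDN5 encodes claudin-5, the main claudin of the tight junction between brain endothelial cells (chromosome 14, 51161490 to 51162382, RefSeq on Sscrofa11.1). Its level lay between 87.5 and 136 CPM around a median of 114 in VEG-NBW, between 100.2 and 162 around a median of 119 in VEG-IUGR, between 119 and 142 around a median of 125 in MILK-NBW and between 71.8 and 138 around a median of 121 in MILK-IUGR. The means ± SD in that order were 114 ± 17.1 (n = 8), 124 ± 19.8 (n = 8), 128 ± 8.64 (n = 8) and 117 ± 21.3 CPM (n = 9). The 4 groups overlapped, and neighbours in the order of their means differed by less than the SD of any group. MILK-NBW was the narrowest group, and MILK-IUGR held the lowest value of all, in piglet 225.

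OCLN encodes occludin, a membrane protein of the tight junction (chromosome 16, 47600175 to 47652435). It had 177 to 323 counts per library, the fewest of the 7 genes, so that counting error alone made up 17.3% of its variance between piglets. The level lay between 10.2 and 16.7 CPM around a median of 13.5 in VEG-NBW, between 11.5 and 15.3 around a median of 14.5 in VEG-IUGR, between 9.14 and 17.6 around a median of 14.7 in MILK-NBW and between 12.1 and 18.5 around a median of 14.4 in MILK-IUGR. The means ± SD were 13.5 ± 1.97 (n = 8), 13.9 ± 1.58 (n = 8), 14.1 ± 2.68 (n = 8) and 14.7 ± 2.28 CPM (n = 9). All 4 ranges overlapped, and the means lay closer together than the SD within any group.

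CDH5 encodes VE-cadherin, the adherens junction protein of endothelial cells (chromosome 6, 27108560 to 27142145). In VEG-NBW it ran from 13.6 to 26.9 CPM (median 20.2), in VEG-IUGR from 14.7 to 27.7 (median 18.7), in MILK-NBW from 17.6 to 38.8 (median 22.3) and in MILK-IUGR from 16.1 to 27.1 (median 20.2). The respective means ± SD were 19.9 ± 3.95 (n = 8), 20.3 ± 4.82 (n = 8), 23.5 ± 6.57 (n = 8) and 20.5 ± 3.27 CPM (n = 9). The groups overlapped. The higher mean of MILK-NBW rested on piglet 234, at 38.8 CPM against 23.8 in the next piglet, and without it the group stood at 21.3 ± 2.42 CPM (n = 7).

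PECAM1 encodes CD31, an adhesion molecule at the contacts between endothelial cells that platelets and leukocytes also carry (chromosome 12, 14667643 to 14723296). RefSeq places the locus LOC110255989 across it, and since the strand setting of the counting is not given in the sources used here, reads of the 2 loci cannot be told apart. PECAM1 lay between 18.5 and 25.5 CPM around a median of 20.9 in VEG-NBW, between 15.8 and 26.7 around a median of 20.7 in VEG-IUGR, between 19.5 and 33.1 around a median of 25.1 in MILK-NBW and between 14.9 and 37.01 around a median of 24.6 in MILK-IUGR. The means ± SD were 21.5 ± 2.58 (n = 8), 20.9 ± 4.19 (n = 8), 25.8 ± 4.50 (n = 8) and 25.7 ± 6.45 CPM (n = 9). The medians of both MILK groups lay above those of both VEG groups, although the ranges overlapped and MILK-IUGR held both the highest piglet, 232, and the lowest, 225.

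MFSD2A encodes the sodium-dependent lysophosphatidylcholine carrier that brings docosahexaenoic acid into the brain and also holds back vesicle transport in endothelial cells (chromosome 6, 95738961 to 95753245). Its level lay between 14.4 and 18.8 CPM around a median of 16.7 in VEG-NBW, between 13.3 and 25.4 around a median of 19.8 in VEG-IUGR, between 14.4 and 21.5 around a median of 18.3 in MILK-NBW and between 14.9 and 23.5 around a median of 17.5 in MILK-IUGR. The means ± SD were 16.9 ± 1.40 (n = 8), 19.5 ± 3.68 (n = 8), 18.1 ± 2.08 (n = 8) and 18.2 ± 2.70 CPM (n = 9). The VEG-NBW group lay in a narrow band at the lower end, and the VEG-IUGR group spread on both sides of it.

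SLC7A5 encodes LAT1, the carrier of large neutral amino acids and thyroid hormone at the barrier (chromosome 6, 1545940 to 1574298). RefSeq lists this locus as lncRNA in the pig, so the counts are those of the identifier that carries the name. SLC7A5 lay between 93.7 and 118 CPM around a median of 102 in VEG-NBW, between 84.9 and 144 around a median of 117 in VEG-IUGR, between 102 and 124 around a median of 112 in MILK-NBW and between 93.4 and 128 around a median of 104 in MILK-IUGR. The means ± SD were 104 ± 8.43 (n = 8), 115 ± 18.7 (n = 8), 114 ± 7.58 (n = 8) and 111 ± 15.0 CPM (n = 9). It varied least of the 7 genes, with a coefficient of variation of 12.04% over the 33 piglets, and its groups overlapped.

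FLT1 encodes VEGFR1, a receptor that binds VEGF-A, VEGF-B and placental growth factor and holds VEGF-A away from the main signalling receptor KDR (chromosome 11, 5620698 to 5797095). It lay between 18.8 and 28.1 CPM around a median of 24.2 in VEG-NBW, between 14.9 and 32.3 around a median of 24.3 in VEG-IUGR, between 22.9 and 28.6 around a median of 27.4 in MILK-NBW and between 21.05 and 28.2 around a median of 24.3 in MILK-IUGR. The means ± SD were 24.3 ± 3.09 (n = 8), 24.5 ± 6.35 (n = 8), 26.1 ± 2.58 (n = 8) and 25.1 ± 2.45 CPM (n = 9). The VEG-IUGR group contained both the lowest and the highest piglet of the study for this gene.

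**Figure D1:**
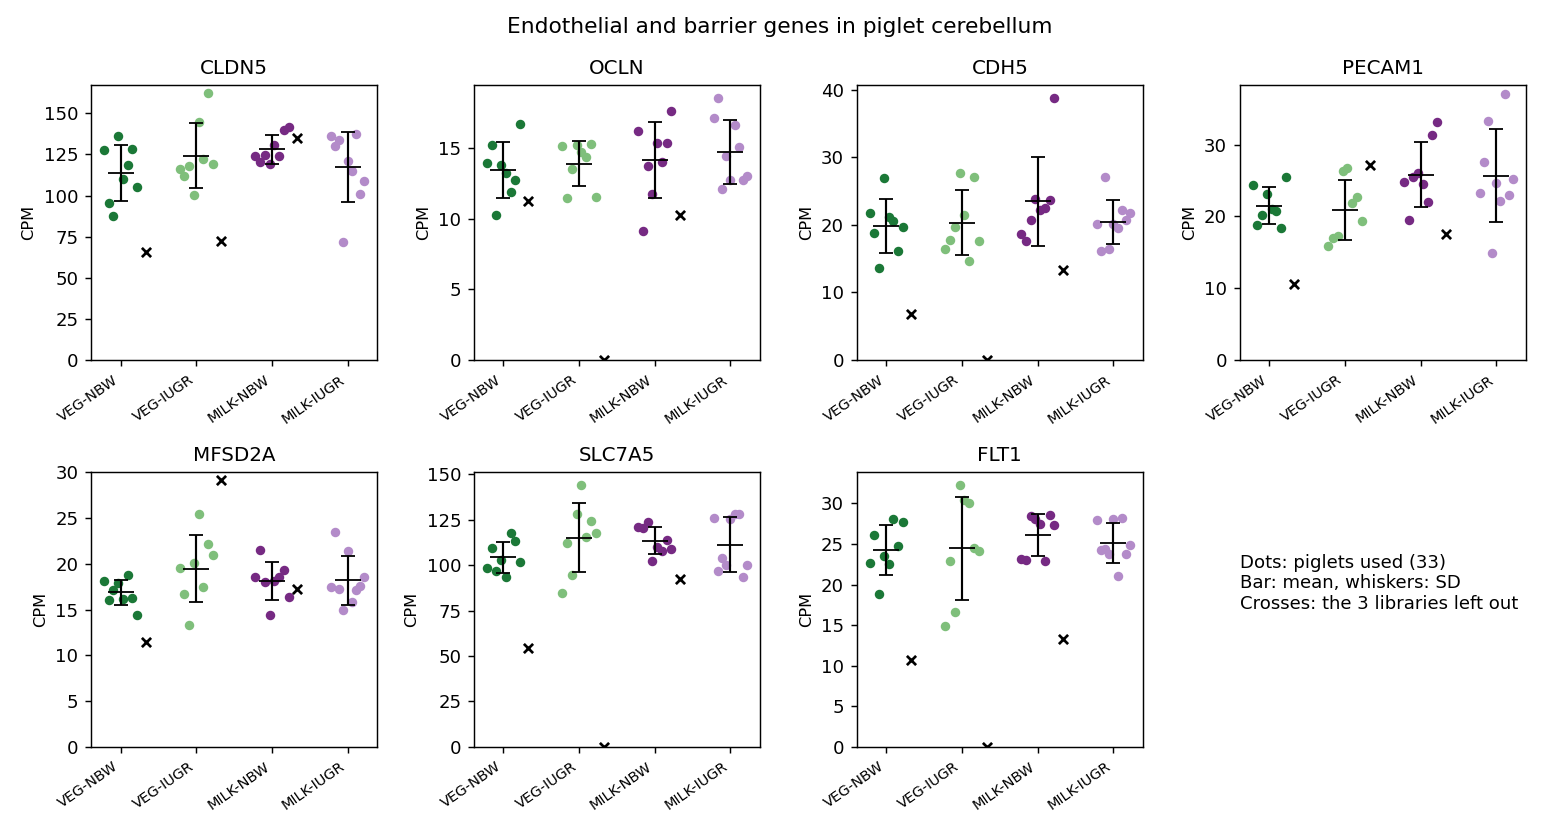
Level of each gene in CPM (vertical axis, from 0) in the 4 groups (horizontal axis). Dots are the 33 piglets used, bars and whiskers the mean and SD, and crosses the 3 libraries left out, among which piglet 210 of VEG-IUGR is at 0 for OCLN, CDH5, SLC7A5 and FLT1. PECAM1 has its 2 highest group means in MILK-NBW and MILK-IUGR, and CDH5 has a single high piglet in MILK-NBW at 38.8 CPM.

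ABCG2 encodes an efflux pump of the barrier. An identifier named ABCG2A was counted in its place, and whether it holds the same gene is not given in the sources used here, so it is not counted among the 7. ABCG2A had means ± SD of 27.0 ± 4.67 CPM in VEG-NBW (n = 8), 28.1 ± 1.88 in VEG-IUGR (n = 8), 28.8 ± 4.19 in MILK-NBW (n = 8) and 27.7 ± 4.43 in MILK-IUGR (n = 9). Its diet estimate was 0.03 on the log2 scale (SE 0.07, adjusted p = 0.988, edgeR), and the groups overlapped.

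Between diets, PECAM1 averaged 25.8 ± 5.44 CPM with MILK (n = 17; lowest 14.9, median 24.7, highest 37.01) and 21.2 ± 3.38 CPM with VEG (n = 16; lowest 15.8, median 20.9, highest 26.7). The ranges overlapped, and the MILK piglet was the higher in 76.8% of the pairs of a MILK and a VEG piglet. The log2 fold change of MILK against VEG was 0.29 (SE 0.09, 95% interval 0.10 to 0.47), a 1.22-fold difference with an unadjusted p of 0.00334 and an adjusted p of 0.985 in edgeR's quasi-likelihood test. Its p ranked 36 of 15356 genes. At that unadjusted threshold 1 of the 7 genes passed for diet, against 4.26% of all genes tested. In bulk tissue such as this, fewer cells of a type and less RNA per cell cannot be told apart.

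The same gene was examined within each birth weight because of its value over both. The estimates within NBW and IUGR are parts of that value and not separate evidence. Their groups share no piglets, but they come from the same fit, with a shared sex term and spread. In NBW piglets PECAM1 differed by 0.29 (SE 0.13, 95% interval 0.02 to 0.56, unadjusted p = 0.0381, adjusted p = 0.738, edgeR). In IUGR piglets it differed by 0.28 (SE 0.13, 95% interval 0.02 to 0.55, unadjusted p = 0.0339, adjusted p = 0.996, edgeR). The same 1 of 7 genes thus passed unadjusted in both, beside 6.67% of all genes within NBW and 3.90% within IUGR. The estimates were nearly equal, and their difference, the interaction, was -0.0023 (SE 0.18, 95% interval -0.38 to 0.37). With all 36 libraries the diet estimate was 0.28 (unadjusted p = 0.0173, edgeR), and within NBW and within IUGR it was 0.32 and 0.25 with unadjusted p of 0.0578 and 0.138.

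The other 6 genes had smaller diet estimates. CDH5 was at 0.12 (SE 0.10), FLT1 at 0.08 (SE 0.08), OCLN at 0.07 (SE 0.08), CLDN5 at 0.04 (SE 0.07), SLC7A5 at 0.04 (SE 0.06) and MFSD2A at -0.0017 (SE 0.07). The median over the 7 genes was 0.07, and over all genes tested it was -0.0035. The intervals bound what could have been missed: for MFSD2A a MILK level between 0.903 and 1.10 times the VEG level, for CLDN5 between 0.927 and 1.14 times, and for CDH5 between 0.943 and 1.26 times. The CDH5 estimate was 0.06 without piglet 234.

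For birth weight, 0 of the 7 genes reached an unadjusted p of 0.05 in edgeR, beside 2.19% of all genes. MFSD2A had the largest estimate, with 18.8 ± 3.16 CPM in IUGR piglets (n = 17) and 17.5 ± 1.82 CPM in NBW piglets (n = 16), a log2 fold change of 0.10 (SE 0.07, 95% interval -0.04 to 0.25). CDH5 was at -0.09 (SE 0.10), OCLN and SLC7A5 at 0.05 (SE 0.08 and 0.06), PECAM1 at -0.05 (SE 0.09), FLT1 at -0.04 (SE 0.08) and CLDN5 at -0.01 (SE 0.08). 3 genes were thus on the higher side in IUGR and 4 on the lower. The intervals of all 7 lay between -0.30 and 0.25.

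Within the VEG diet, MFSD2A was at 0.21 in IUGR against NBW piglets (SE 0.10, 95% interval -9.9e-05 to 0.41, unadjusted p = 0.0501, adjusted p = 0.9996, edgeR). This value sits at the threshold, and DESeq2 gave an unadjusted p of 0.0494. Within the MILK diet it was 0.0030 (SE 0.10). The difference between the diets, -0.20 (SE 0.14, unadjusted p = 0.163, edgeR), did not pass. For birth weight within VEG 0 of the 7 genes passed unadjusted beside 2.29% of all genes, and within MILK 0 of 7 beside 6.24%.

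The interaction measures how far the MILK against VEG difference in IUGR piglets departs from that in NBW piglets. For CLDN5 the diet difference was 0.19 in NBW (SE 0.10) and -0.10 in IUGR (SE 0.10), which gives an interaction of -0.29 (SE 0.14, 95% interval -0.58 to 0.01, unadjusted p = 0.0558, adjusted p = 0.784, edgeR). CDH5 had -0.23 (SE 0.21), MFSD2A -0.20 (SE 0.14), SLC7A5 -0.18 (SE 0.12), FLT1 -0.09 (SE 0.16) and OCLN 0.01 (SE 0.16). None of the 7 passed unadjusted, beside 6.09% of all genes. Of the 7 estimates 6 were below 0, with a median of -0.18 against -0.0017 over all genes, and these genes are correlated over piglets, so their signs are not independent. The CDH5 value was -0.10 without piglet 234.

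Sex was a covariate in every fit except the alternative without a sex term. The estimates for males against females were -0.14 for PECAM1 (SE 0.09), -0.13 for FLT1 (SE 0.08) and -0.08 for CLDN5 (SE 0.08), and the other 4 genes lay within 0.05 of 0. The smallest unadjusted p among the 7 was 0.108, and 0 of 7 passed beside 3.00% of all genes.

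**Figure D2:**
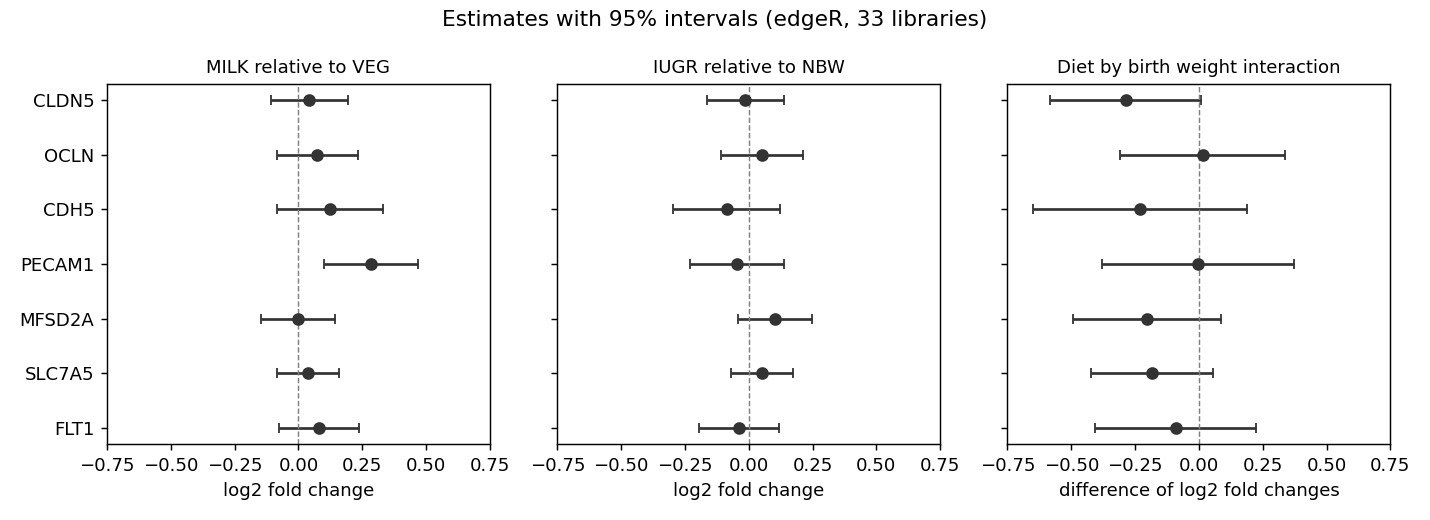
Estimates for the 7 genes (vertical axis) on the log2 scale (horizontal axis) for diet, birth weight and their interaction, with 95% intervals from edgeR over 33 libraries. PECAM1 for diet, at 0.29 with an interval from 0.10 to 0.47, is the single interval that does not cross 0, and its adjusted p was 0.985.

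Whether the genes rise and fall together from piglet to piglet was measured over the 21 pairs of the 7 genes, on log2 CPM with a prior count of 2. All 21 Pearson coefficients were above 0, from 0.0030 to 0.63, with a median of 0.31. The median over all pairs of 3839 genes was -0.0014. These were a subset of the genes tested and were not matched to the 7 in level. By two-sided permutation tests adjusted over the 21 pairs, 5 pairs passed by Pearson's r and 4 by Spearman's rho. All pairs come from the same libraries and the same scaling, so the coefficients share their source.

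The closest pair was SLC7A5 and FLT1, a carrier and a receptor (r = 0.63, adjusted permutation p = 0.000945; rho = 0.55, adjusted p = 0.00588). PECAM1 and CDH5, both at the contacts between endothelial cells, had r = 0.62 (adjusted permutation p = 0.000945) and rho = 0.62 (adjusted p = 0.00252). PECAM1 also varied with FLT1 (r = 0.57, adjusted permutation p = 0.00455; rho = 0.58, adjusted p = 0.00556). These 3 pairs passed again without the 2 piglets farthest from the median of the first gene, at r = 0.49, 0.63 and 0.59.

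CLDN5 varied with PECAM1 (r = 0.54, adjusted permutation p = 0.00572; rho = 0.52, adjusted p = 0.0111) and with CDH5 (r = 0.47, adjusted permutation p = 0.0298; rho = 0.44, adjusted p = 0.0507). Both relations were weaker without piglets 215 of VEG-NBW and 225 of MILK-IUGR, the lowest of their groups for CLDN5. Without them r was 0.41 (adjusted permutation p = 0.115) and 0.33 (adjusted p = 0.212), and leaving out extreme piglets also narrows the range. After the group means and sex were removed, the same count of 5 pairs passed, with r = 0.64 for SLC7A5 and FLT1 and 0.63 for PECAM1 and CDH5.

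OCLN and MFSD2A stood at the edge of the group. OCLN had r = 0.0030 with MFSD2A and 0.10 with SLC7A5, and its closest member was PECAM1 (r = 0.34, adjusted permutation p = 0.113). MFSD2A had r = 0.01 with CDH5 and was closest to CLDN5 (r = 0.42, adjusted permutation p = 0.0520) and SLC7A5 (r = 0.41, adjusted permutation p = 0.0520). Neither gene passed in any pair. Counting error made up 14.2% of the variance of MFSD2A between piglets, against 2.12% for CLDN5.

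**Figure D3:**
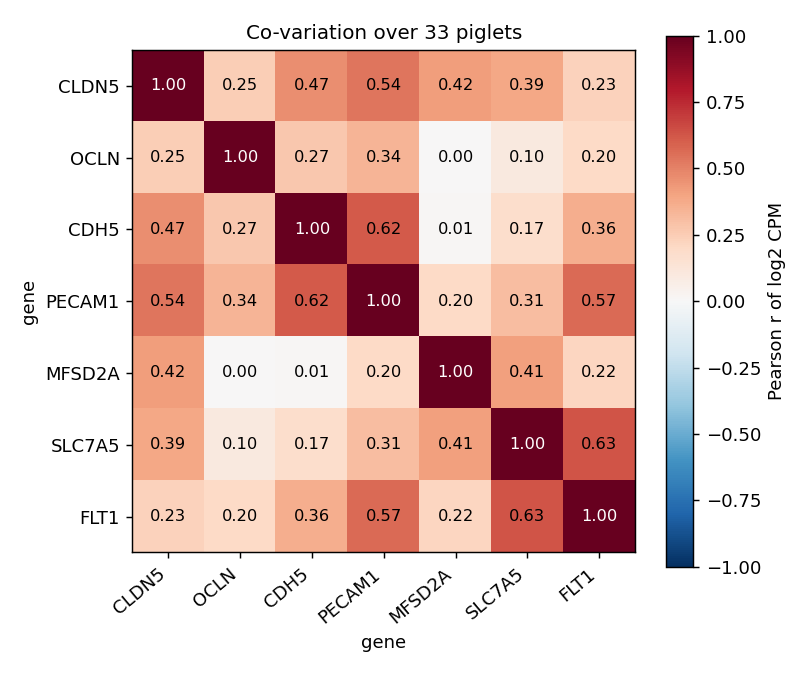
Pearson r of log2 CPM over 33 piglets for each pair of the 7 genes (both axes), on a colour scale from -1 to 1. The highest values join SLC7A5 with FLT1 (0.63) and PECAM1 with CDH5 (0.62), and OCLN with MFSD2A is at 0.0030.

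Markers of other cells were measured beside the 7 genes, as the mean log2 CPM of each list in each piglet, in 49 relations that also include total counts and the share of read pairs not assigned. PECAM1 varied with the vascular mural markers, genes of pericytes and smooth muscle (r = 0.65, adjusted permutation p = 0.000735; rho = 0.63, adjusted p = 0.00245). CDH5 (r = 0.61, adjusted permutation p = 0.00212; rho = 0.63, adjusted p = 0.00245) and CLDN5 (r = 0.57, adjusted permutation p = 0.00637; rho = 0.59, adjusted p = 0.00502) did so too. Without the 2 farthest piglets these were 0.63, 0.62 and 0.48. FLT1 was at r = 0.21 and MFSD2A at 0.13 with the same markers, and neither passed.

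For diet, 12 of the 15 mural markers tested had estimates on the higher side with MILK and 3 on the lower (median log2 fold change 0.11). An unadjusted p under 0.05 was reached by 5 of the 15, beside 4.26% of all genes, all 5 of them genes of the contractile or intermediate filament apparatus of smooth muscle: TAGLN (0.49, SE 0.13), MYH11 (0.59, SE 0.18), ACTA2 (0.57, SE 0.18), DES (0.70, SE 0.22) and CNN1 (0.62, SE 0.20). None passed an adjusted p of 0.05, each being at 0.985 in edgeR. CNN1 was named after its value was seen. The summed level of the list ran from 351 to 453 CPM in VEG-NBW, 359.7 to 448 in VEG-IUGR, 416 to 504 in MILK-NBW and 363 to 529 in MILK-IUGR. Of the 16 markers, HIGD1B was at 0 in 15 libraries and the others were above 0 in every library. After the group means and sex were removed, PECAM1 and the mural markers had r = 0.54. The part of these cells in the PECAM1 difference was not tested.

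CDH5 followed the fibroblast and meninges markers most closely (r = 0.78, permutation p = 1e-05, the smallest these permutations can give; adjusted p = 0.00049 for r and for rho = 0.72). Without piglets 215 and 234 r was 0.72. The summed level of that list ran from 504 to 1195 CPM in VEG-NBW, 450.5 to 961 in VEG-IUGR, 563 to 1317 in MILK-NBW and 494 to 1091 in MILK-IUGR, and only DPT, at 0 in 3 libraries, was ever at 0. The highest sum, 1317 CPM, was that of piglet 234, which also had the highest CDH5. None of the 8 fibroblast markers tested had an unadjusted p under 0.05 for diet, birth weight or the interaction, beside 4.26%, 2.19% and 6.09% of all genes. PECAM1 and CLDN5 were at r = 0.30 and 0.40 with this list and did not pass. The part of these cells in the CDH5 levels was not tested.

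Astrocyte and Bergmann glia markers varied with CLDN5 (r = 0.53, adjusted permutation p = 0.0169; rho = 0.49, adjusted p = 0.0380), PECAM1 (r = 0.50, adjusted permutation p = 0.0203; rho = 0.53, adjusted p = 0.0161) and MFSD2A (r = 0.50, adjusted permutation p = 0.0203; rho = 0.46, adjusted p = 0.0551). Without the 2 farthest piglets the coefficients were 0.38, 0.49 and 0.42. CLDN5 was lower where the share of read pairs not assigned was higher (r = -0.49, adjusted permutation p = 0.0295; rho = -0.44, adjusted p = 0.0604), and r was -0.35 without piglets 215 and 225. Piglet 215 had the highest such share among the 33, 30.5%, and the lowest CLDN5 of VEG-NBW. The part of RNA quality in the CLDN5 levels was not tested.

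The other marker lists had these counts. Of 7 astrocyte and Bergmann glia markers, 7 of microglia, 12 of cerebellar neurons and 7 of oligodendrocytes, none had an unadjusted p under 0.05 for diet, birth weight or the interaction. Over all genes 4.26%, 2.19% and 6.09% did in these 3 comparisons. For diet, the estimates were on the higher side with MILK for 7 of 7 oligodendrocyte markers (median log2 fold change 0.16), 7 of 7 astrocyte markers (0.08), 4 of 7 microglia markers (0.05) and 6 of 12 neuron markers (-0.0028). Of 6 red blood cell markers HBB was the only gene under 0.05 in these comparisons, for diet (-1.09, SE 0.34, unadjusted p = 0.00308, adjusted p = 0.985, edgeR). Of 5 choroid plexus markers TTR, CLIC6 and AQP1 had interactions of 4.54 (SE 1.54), 4.43 (SE 1.49) and 3.47 (SE 1.11). Their unadjusted p in edgeR was 0.00582, 0.00539 and 0.00361, and their adjusted p was 0.784. These 3 of 5 markers stand beside 6.09% of all genes. The summed choroid plexus level ran from 16.9 to 1683 CPM, its highest in piglet 231 of MILK-IUGR.

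**Figure D4:**
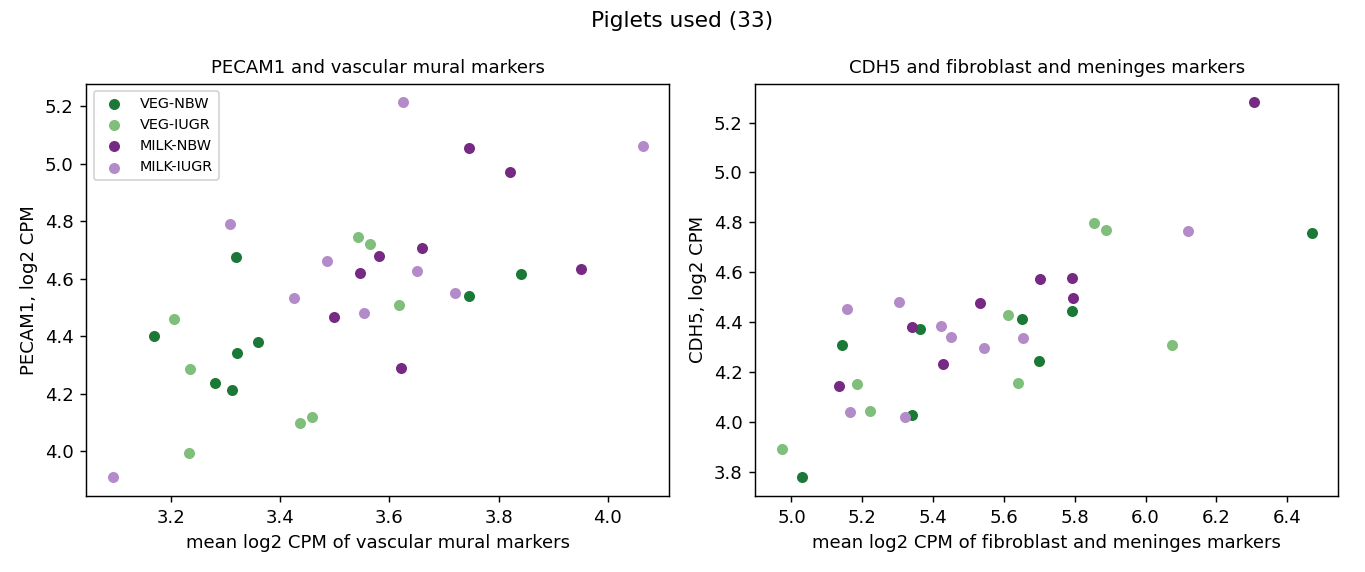
Left, PECAM1 against the vascular mural markers, and right, CDH5 against the fibroblast and meninges markers, each as log2 CPM (vertical axis) against the mean log2 CPM of the list (horizontal axis) in the 33 piglets, coloured by group. Pearson r is 0.65 on the left and 0.78 on the right, where the highest point is piglet 234 of MILK-NBW.

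The genes most like the 7 were sought among 12516 genes with a symbol, by Pearson r over 33 piglets with the mean standardised log2 CPM of the 7, as a description. The 10 nearest were RASSF3 (r = 0.74), JCAD (0.72), HSPA12B (0.72), C1orf115 (0.70), PGM5 (0.70), ACE (0.70), SVIL (0.69), ETS1 (0.68), RECK (0.68) and ADGRA2 (0.67). JCAD encodes a junction protein of endothelial cells, ETS1 a transcription factor used in them, and ACE the angiotensin converting enzyme of their surface. RECK and ADGRA2 encode the coreceptors through which Wnt7 ligands act on brain endothelium. RASSF3, HSPA12B, C1orf115, PGM5 and SVIL are not described here, and the cell type in which the 10 genes were expressed was not tested.

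Taken singly, the genes had different neighbours. CLDN5 lay nearest to RAMP2, which encodes a subunit of the adrenomedullin receptor (r = 0.81), and CCT7, a chaperonin subunit (0.75). CDH5 lay nearest to ADGRA2 (0.87) and FN1, which encodes fibronectin (0.83). PECAM1 was nearest to HSPA12B (0.70) and SEMA3G (0.70), and OCLN to ADGRL4 (0.62) and ITM2A (0.60). SLC7A5 was nearest to EPAS1, a hypoxia-inducible transcription factor (0.68), and DNAAF9 (0.65). FLT1 had STK4 (0.69) and ST8SIA1 (0.68), and MFSD2A had CIAO2B (0.70) and SORD (0.70).

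Further genes of the vessel wall were taken from 6 lists. No gene of any list passed an adjusted p of 0.05 in edgeR for diet, birth weight, the interaction or sex, where 0% of all genes did for the first 3 and 0.163% for sex. Counts at an unadjusted p under 0.05 are to be read against 4.26% of all genes for diet, 2.19% for birth weight, 6.09% for the interaction and 3.00% for sex. These lists and the marker lists above were chosen with earlier results of these data known, so this is not an independent comparison. Of 25 genes of endothelial identity 20 had a counted identifier and 19 passed the filter on low counts. Among these 19, 17 were on the higher side with MILK (median log2 fold change 0.06) and 3 had an unadjusted p under 0.05 (4.26% of all genes), all on that side. The oligodendrocyte and astrocyte markers lay on the same side in 7 of 7 each, with medians of 0.16 and 0.08. The 3 identity genes under 0.05 in edgeR were CLEC14A (0.22, SE 0.08, unadjusted p = 0.00647), ERG, a transcription factor of endothelial cells (0.23, SE 0.09, unadjusted p = 0.0130), and MMRN2 (0.30, SE 0.14, unadjusted p = 0.0380). MMRN2 was named after its value was seen. KDR, the main VEGF receptor, was at 0.04 (SE 0.06) and TIE1 at -0.03 (SE 0.07).

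Among 14 genes of VEGF and angiopoietin signalling, 12 were on the higher side with MILK (median 0.06) and 3 had an unadjusted p under 0.05, again beside 4.26% of all genes. The VEGF and semaphorin coreceptors NRP1 and NRP2 were at 0.26 (SE 0.09) and 0.25 (SE 0.08), and the endothelial phosphatase gene PTPRB was at 0.18 (SE 0.08). Among 13 other junction genes, 10 were on the higher side (median 0.02), and the junctional adhesion molecule gene F11R (0.23, SE 0.07) and CGNL1 (0.16, SE 0.07) had an unadjusted p under 0.05, while TJP1, the scaffold of the tight junction, was at 0.01 (SE 0.04). Of 14 genes of the Wnt barrier programme 12 were on the higher side (median 0.05). LEF1, a nuclear effector of the pathway, was at 0.22 (SE 0.07, unadjusted p = 0.00475, edgeR). The median over all genes was -0.0035. The lists share genes, among them KDR and TIE1, and all values come from the same libraries, so the signs are not independent.

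The carriers gave no such values for diet. Of 18 barrier transporters and receptors 9 were on the higher side and 9 on the lower (median -0.0088), with none at an unadjusted p under 0.05, and CAV1, the coat protein of caveolae, stood nearest to it (0.24, SE 0.12, unadjusted p = 0.0517). Of 14 genes of fatty acid uptake 10 were on the higher side (median 0.02) and none passed unadjusted. These sit beside MFSD2A at -0.0017.

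**Figure D5:**
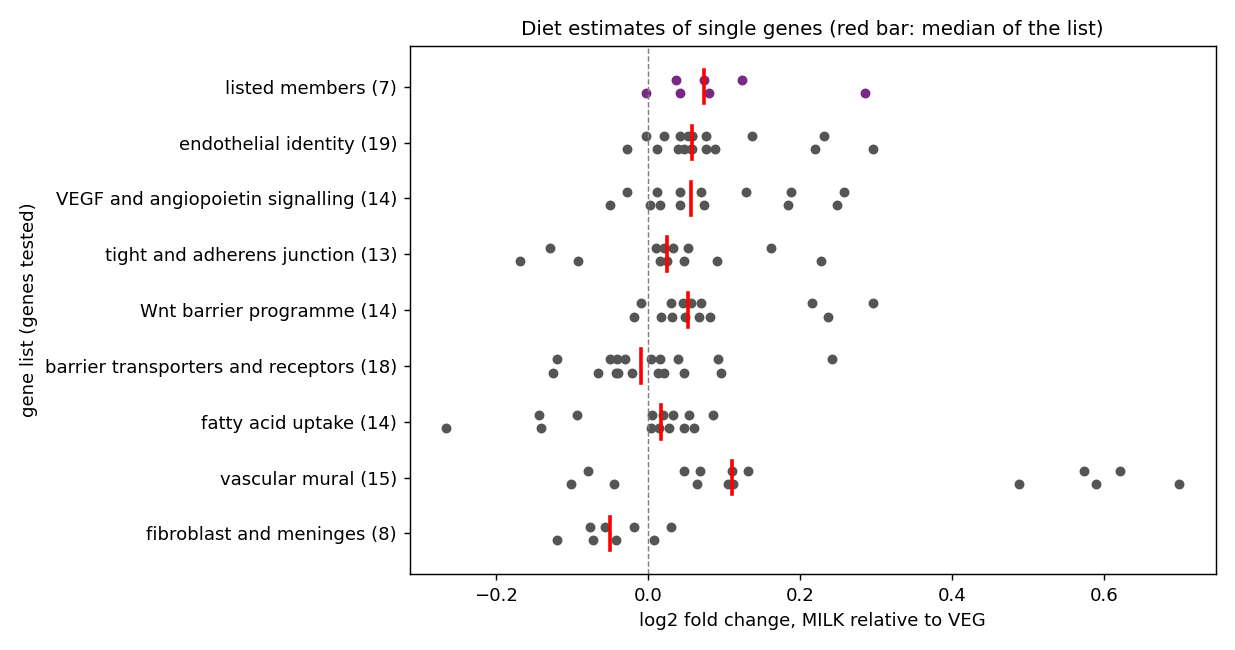
Diet estimates of single genes, MILK relative to VEG on the log2 scale (horizontal axis), for the 7 genes and for 8 lists (vertical axis, number of genes tested in brackets). The red bar is the median of a list, 0.07 for the 7 genes and -0.0088 for barrier transporters and receptors, and the 5 mural points to the right of 0.4 are TAGLN, ACTA2, MYH11, CNN1 and DES.

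For birth weight, PLVAP, the diaphragm protein of fenestrated and leaky endothelium, was at -0.39 in IUGR against NBW piglets (SE 0.13, unadjusted p = 0.00537, adjusted p = 0.9996, edgeR), and TIE1 was at -0.17 (SE 0.07, unadjusted p = 0.0299). They were the only 2 of the 19 identity genes under 0.05, beside 2.19% of all genes. PLVAP is also among the 18 transporters and receptors, where it was the only gene under 0.05, and TIE1 was the only such gene among the 14 of VEGF signalling, counts of 1 that stand beside the same 2.19%. Of the Wnt genes 12 of 14 were on the lower side in IUGR (median -0.04) with none under 0.05, as was also the count for the junction and fatty acid lists.

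For the interaction, 4 of the 14 fatty acid genes had an unadjusted p under 0.05, beside 6.09% of all genes. The acyl-CoA synthetase genes ACSL6 and ACSL3 were at 0.17 (SE 0.07) and 0.15 (SE 0.07), and SLC27A4, a fatty acid transport protein, and LPCAT1, a lysophosphatidylcholine acyltransferase, were at -0.20 (SE 0.08) and -0.22 (SE 0.09). Their adjusted p was 0.784 in edgeR. Of the Wnt genes 12 of 14 were below 0 (median -0.16), with FOXF2 at -0.38 (SE 0.16) and ADGRA2 at -0.36 (SE 0.17) under 0.05 unadjusted. None of the identity or junction genes was under 0.05, 1 of 18 transporters was (SLC1A4, 0.25, SE 0.12), and 1 of 14 VEGF genes was, shares near the 6.09% of all genes. The VEGF gene was PGF, the placental growth factor that binds FLT1 (-0.56, SE 0.26, unadjusted p = 0.0381), named after its value was seen.

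For sex, 16 of the 19 identity genes had estimates on the lower side in males (median -0.09, against 0.0086 over all genes), a median larger in size than that for diet (0.06). An unadjusted p under 0.05 was reached by ERG (-0.23, SE 0.09), EMCN (-0.25, SE 0.10) and CD34 (-0.15, SE 0.07), 3 of 19 beside 3.00% of all genes, and CD34 was named after its value was seen. Among the mural markers 11 of 15 were on the lower side in males (median -0.09), and MYH11 (-0.44, SE 0.18) and ACTA2 (-0.42, SE 0.18) were under 0.05. LEF1 (-0.20, SE 0.07) and WNT7B (0.19, SE 0.09) were the 2 of 14 Wnt genes under 0.05, and the junction, transporter, VEGF and fatty acid lists had none. The libraries used held 4 females and 4 males in VEG-NBW and in VEG-IUGR, 3 females and 5 males in MILK-NBW, and 5 females and 4 males in MILK-IUGR. Without sex in the fit the diet estimate of PECAM1 was 0.28 (unadjusted p = 0.0044, edgeR).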

How the data were processed

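Total RNA of snap-frozen cerebellum was sequenced as paired reads from 36 piglets, 9 per group, and each library is 1 piglet. The authors deposited 1 table per piglet, with unnormalized counts of the read pairs assigned to each Ensembl gene of the pig. The submitters' processing notes name Trim Galore, HISAT2, HTSeq, DESeq2 and the build Sscrofa11.1, while the strand setting and the annotation release are not given in the sources used here. Read pairs without a gene were kept out of library sizes. Of 31907 identifiers 15029 had a symbol in a table of pig gene names. Coordinates are those of RefSeq on Sscrofa11.1.

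The study excluded 3 unnamed libraries for their RNA integrity. Here a library was left out where its share of read pairs not assigned to a gene stood apart in its group by Dixon's ratio of gap to range (above its 95% critical value), which removed 3. The quasi-likelihood F test of edgeR 4.0.16, run in R 4.3.3, was applied to counts after filterByExpr (minimum count of 10) and TMM normalization, and p-values were adjusted over 15356 genes by Benjamini-Hochberg. Diet, birth weight and sex were fitted together, and the interaction and 4 contrasts came from a fit of the 4 group means and sex. CPM use TMM library sizes. Intervals are at 95%. Correlations used log2 CPM (prior count of 2) and two-sided permutation tests with 100000 draws in Python 3.11.15 with numpy 2.4.6 and pandas 2.3.3. The tests were checked on simulated data. At an adjusted p under 0.05, a 1.25-fold change was called in 62% of the changed genes for diet and 8% for the interaction. For a 1.5-fold change these shares were 82% and 50%. The simulated spread followed the trend over all genes and not the spread of each gene. Alternatives were DESeq2 1.42.0, its size factors in edgeR, no sex term, no low-count filter and all 36 libraries, and a fit without piglet 234 was added after the data were seen. No 2 libraries held identical counts.

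The genes and lists were chosen with earlier results of these data known. Named beside the members were the 10 genes most like their mean, the 2 most like each, and up to 4 genes of each list with the smallest unadjusted p for diet, birth weight, interaction or sex. Genes named outside this rule to complete a count, or as known partners (ERG for diet, KDR and TJP1), were chosen after their values were seen. Levels of different genes were not compared, since no transcript lengths were used here, and no sequences were used here. Litter, a random effect in the study's linear models, was not used here.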

Additional observations from a re-analysis of the deposited data

Results flagged for a closer look

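CDH5 in piglet 234 of MILK-NBW, at 38.8 CPM, stood apart from the other 7 piglets of its group. The nearest of them was at 23.8 CPM, and this gap was 0.707 of the range of the group, above Dixon's 95% critical value for 8 libraries. It was the only case in 28 sets of a gene and a group, where chance gives about 1 in 20. The piglet also had the highest PECAM1 of its group, 33.1 CPM, the highest CLDN5, 142 CPM, and the highest OCLN, 17.6 CPM, and the highest summed fibroblast and meninges level of all piglets, 1317 CPM. Without it the CDH5 estimates moved from 0.12 to 0.06 for diet, from 0.24 to 0.11 for diet within NBW, from -0.20 to -0.07 for birth weight within MILK and from -0.23 to -0.10 for the interaction. None had passed the test with it. The correlation of PECAM1 with CDH5 was 0.56 without it (permutation p = 0.00081), and that of CLDN5 with CDH5 was 0.44 (permutation p = 0.0117).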

How the results depend on the processing

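With 8 or 9 piglets per group, 0 of the 7 genes passed an adjusted p of 0.05 in any comparison under any alternative, and the smallest adjusted p was 0.414. Of 281 alternative estimates for 56 pairs of a gene and a comparison, 265 kept their direction and side of the threshold. The other 16 changed sign, from estimates no larger than 0.09 in size, and the cause was not tested. The interaction of PECAM1 became 0.0038 in DESeq2, 0.0045 with its size factors, 0.037 without sex and 0.0012 without the filter. With all 36 libraries PECAM1 became 0.040 for birth weight, 0.077 for it within VEG and 0.00063 within MILK, and FLT1 0.081 for the interaction, -0.067 for birth weight within VEG and 0.015 within MILK. SLC7A5 became 0.12 for diet within IUGR, 0.011 for birth weight within MILK and 0.048 for sex, OCLN -0.10 and CDH5 -0.024 for birth weight within VEG. CDH5 for sex became -0.052 without piglet 234.

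The number of the 7 genes with an unadjusted p under 0.05 became 1 for the interaction without the filter (CLDN5), 0 for diet within NBW with all 36 libraries or without sex, 0 for diet within IUGR with all 36, and 1 for birth weight within VEG with all 36, in DESeq2, without sex or without the filter (MFSD2A). Over all genes, adjusted calls for diet within NBW were 2 in DESeq2, and for birth weight within MILK 1 in DESeq2, 1 with its size factors and 1 without sex, against 0. Unadjusted counts without the filter, which tests more genes, were 1425 for diet, 1050 for birth weight, 1623 for the interaction, 1602 and 1245 for diet within NBW and IUGR, 963 and 1567 for birth weight within VEG and MILK, and 1243 for sex, against 654, 337, 935, 1025, 599, 351, 958 and 460. With all 36 libraries they were 190 for diet, 118 and 1142 for diet within NBW and IUGR, 1356 and 59 for birth weight within VEG and MILK, and 161 for sex. Correlated pairs numbered 13 with all 36 libraries, where piglet 210 lies at 0 for 4 genes, and 3 without the 2 farthest piglets, against 5. Counting error set 2.12% to 17.3% of the variance between piglets. No paired analysis was possible, since each piglet is in 1 group. The study drew its piglets from several litters, which are not in the labels used here, so the tests treat the piglets as unrelated. Levels per length were not run, since no transcript lengths were used here.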

Other observations

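Within the diets the same pairs of genes gave different coefficients. SLC7A5 and FLT1 had r = 0.81 over the 16 VEG piglets (rho = 0.82, permutation p = 0.00016, adjusted p = 0.00441 over 42 relations) and r = 0.20 over the 17 MILK piglets. Without the 2 farthest piglets of each diet, r was 0.72 in VEG and 0.39 in MILK, a narrower difference. CLDN5 and PECAM1 had r = 0.79 over the 17 MILK piglets (rho = 0.66, permutation p = 0.00021, adjusted p = 0.00441) and r = 0.22 over the 16 VEG piglets. Without the 2 farthest of each diet, r was 0.64 in MILK and 0.18 in VEG. By Spearman's rho the adjusted permutation p was 0.00798 for the first and 0.0833 for the second. PECAM1 and FLT1 passed by Pearson's r in VEG as well (r = 0.71, adjusted permutation p = 0.0272), with r = 0.49 in MILK. By Spearman's rho this pair did not pass in either diet, and the higher rho was in MILK. Its rho was 0.60 in VEG (adjusted permutation p = 0.112) and 0.63 in MILK (adjusted permutation p = 0.0915). Its r was 0.54 in VEG and 0.43 in MILK without the 2 farthest piglets of each diet. These pairs were chosen after their values were seen, and the differences between the diets were not tested.

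In all 3 libraries left out, CDH5, SLC7A5 and FLT1 lay below every other piglet of their group, with FLT1 at 10.7 CPM in piglet 202, 13.3 CPM in piglet 213 and 0 in piglet 210. Piglet 210 had counts above 0 for only 6513 identifiers, so its 0 counts were not confined to these genes. The other 4 genes did not do so in all 3. The share of all genes that did so is not given here, so this does not set CDH5, SLC7A5 and FLT1 apart from other genes. The identifier ABCG2A, which is not among the 7 genes, was above every other piglet of its group in piglet 202 (48.7 CPM, others up to 34.5) and piglet 213 (42.5 CPM, others up to 34.3) and below every other in piglet 210 (9.85 CPM, others from 24.5).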
